A study of Mus musculus with 6 samples.

Results

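The 10 genes described here are the 4 JAK kinase genes (Jak1, Jak2, Jak3 and Tyk2), 4 STAT genes outside the interferon and IL-4 branches (Stat3, Stat4, Stat5a and Stat5b) and 2 feedback inhibitor genes (Socs3 and Cish). They were chosen by symbol, and all 10 were found among the 23935 gene symbols of the deposited count and TPM tables. The study asked how loss of the glycolytic enzyme PKM2 in macrophages alters their inflammatory state, and these libraries compare bone marrow-derived macrophages (BMDMs) of PKM2ΔMAC and PKM2FL/FL mice. None of the 10 genes differed between the genotypes at an adjusted p under 0.05, where 0.412% of all genes tested did so. At that share, 0 of 10 says little about these genes in particular. The intervals below give the size of difference that these libraries leave possible for each.

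BMDMs are macrophages grown from marrow precursors in M-CSF, here for 7 days. According to the labels and methods, both groups were then primed for 16 h with LPS, a bacterial cell wall component, at 10 ng/mL and with IFN-γ at 25 ng/mL. PKM2FL/FL mice (3 libraries) carried the floxed Pkm allele without Cre and were littermate controls. PKM2ΔMAC mice (3 libraries) carried this allele and also LysM-Cre, which is driven by the Lyz2 locus and is active in macrophages and in neutrophils. Loss of PKM2, the presence of Cre and a change in Lyz2 itself therefore cannot be told apart in this comparison. Each library came from a different mouse. The methods name male mice for BMDMs of these genotypes primed alike for flow cytometry, and the sex and age of the mice behind these libraries are not given in the sources used here. Unprimed BMDMs were not analysed here, so a response to priming cannot be read from these values. Of the genes that this priming usually induces, some were near 0 in all 6 libraries, against the label, and others were well detected (values below), so the cells are called primed here only as labelled.

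Cytokine receptors without kinase activity of their own carry JAK kinases on their intracellular tails. When a ligand joins the receptor chains, the JAKs phosphorylate each other and the receptor, STAT proteins dock and are phosphorylated, and STAT dimers enter the nucleus and bind gamma-activated sites. Socs3 and Cish are among the genes that STAT3 and STAT5 switch on, and their proteins dampen the same receptors. Much of this control works through phosphorylation, which RNA levels do not report.

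The STAT binding motif was looked for in the RefSeq promoters (GRCm38.p6, 250 bases before to 50 bases after each start) because Socs3 and Cish are classical STAT targets. The motif TTCNNNGAA (N, any base) reads the same on both strands. All 10 genes were in the promoter table, with 13 promoters, and only those of Cish and Socs3 held the motif. Of all 32851 promoters in the table, 8.30% held at least 1 match and 0.457% held at least 2. The matched stretches are shown 5′ to 3′ on the gene's strand, with the motif in capitals. The Cish stretch (chr9:107296654-107296683, plus strand) holds 2 matches that begin 0 and 11 bases after the start, and the Socs3 stretch (chr11:117969501-117969530, minus strand) holds 1 that begins at -154.
Cish: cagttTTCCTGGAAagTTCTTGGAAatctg
Socs3: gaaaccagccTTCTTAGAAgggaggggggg
A match describes these letters and not a bound site, and the absence of a match in the 8 other genes covers these windows only.

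The libraries held between 49957449 and 54524651 counts. Levels per library are given as CPM, counts scaled to a common library total with TMM factors, and levels of different genes are compared as TPM, which also divides by gene length. At this depth, a gene with 0 counts may still have up to 3, or 0.0546 to 0.0604 CPM, counting error alone considered. Over the 16516 genes tested with edgeR's quasi-likelihood test, 68 had a Benjamini-Hochberg adjusted p under 0.05, which is 0.412% of the genes. Pkm, the targeted gene, encodes both PKM1 and PKM2, and counts by gene do not separate them. Pkm had 1706 ± 8.07 CPM in the controls and 1068 ± 125 CPM in PKM2ΔMAC BMDMs (mean ± SD, n = 3 each). Its log2 fold change was -0.68 with an adjusted p of 0.00913, which rose to between 0.0754 and 0.0993 when any of the control libraries was left out. Lyz2, the Cre locus, had a log2 fold change of -9.29 (adjusted p = 8.53e-09). Its mean was 47420 TPM in the controls and 79.4 TPM in PKM2ΔMAC BMDMs, and the TPM of each library summed to between 999626 and 999691. Within such a fixed sum, less TPM of 1 gene leaves more for the others. The part of Lyz2 in the TPM differences below was not tested. All 8 macrophage markers had a mean of at least 1 TPM, and 2 of them were higher in PKM2ΔMAC without overlap, where 8.92% of all genes tested were. These were Itgam (log2 fold change 0.43, adjusted p = 0.00272) and Adgre1 (log2 fold change 0.26, adjusted p = 0.236). Col1a1, a collagen gene of stromal cells, was also high in every library, from 1040 to 1540 TPM. The 6 stromal markers summed to between 5060 and 5640 CPM in PKM2FL/FL and between 5070 and 6380 CPM in PKM2ΔMAC libraries, and 1 of them, Pdgfrb, was higher without overlap (log2 fold change 0.22, adjusted p = 0.0719). Among genes usually induced by LPS and IFN-γ, chosen after their values were seen, Nos2 had between 0.0308 and 0.401 TPM, Cxcl9 between 0.499 and 1.15 TPM, Il6 between 0.197 and 0.515 TPM and Il12b between 0.0694 and 0.198 TPM, whereas Irf1 had between 47.8 and 52.6 TPM, Gbp2 between 26.8 and 39.1 TPM, Il1rn between 157 and 259 TPM and Ebi3 between 68.2 and 106 TPM. Without unprimed libraries, whether the detected genes were induced cannot be told. In bulk RNA, a lower level can come from fewer cells of a type or from less RNA per cell, which cannot be told apart.

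The levels of the 10 genes spanned a wide range and were ordered alike in both genotypes. Jak1, the kinase shared by interferon, gp130, gamma chain and IL-10 receptors, was the most abundant with a mean of 219.9 TPM over the 6 libraries (range 212 to 229). It was 2.35-fold above the mean of Stat3, the factor downstream of IL-6 and IL-10 (93.6 TPM, range 92.7 to 95.9). Socs3, which blocks gp130 signalling, followed with 74.8 TPM (range 59.2 to 90.3), and Jak2, the kinase of the beta chain and growth factor type receptors, with 65.6 TPM (range 62.3 to 70.2). Stat5b had 54.9 TPM (range 53.2 to 57.4) and Tyk2, a kinase of type I interferon and IL-12 family receptors, 50.3 TPM (range 49.2 to 52.8). Jak3, the kinase bound to the common gamma chain, had 26.8 TPM (range 21.7 to 29.0) and Stat5a 20.3 TPM (range 17.9 to 23.0). Only Socs3 with Jak2 and Jak3 with Stat5a, as neighbours in this order, had ranges that overlapped. A gap of 15.0-fold then separated Stat5a from Stat4, the factor downstream of IL-12, with 1.35 TPM (range 1.08 to 1.79). Cish, the STAT5-induced inhibitor, was lowest with 0.728 TPM (range 0.498 to 0.859). All 10 genes held the same rank when any single library was left out.

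**Figure D1:**
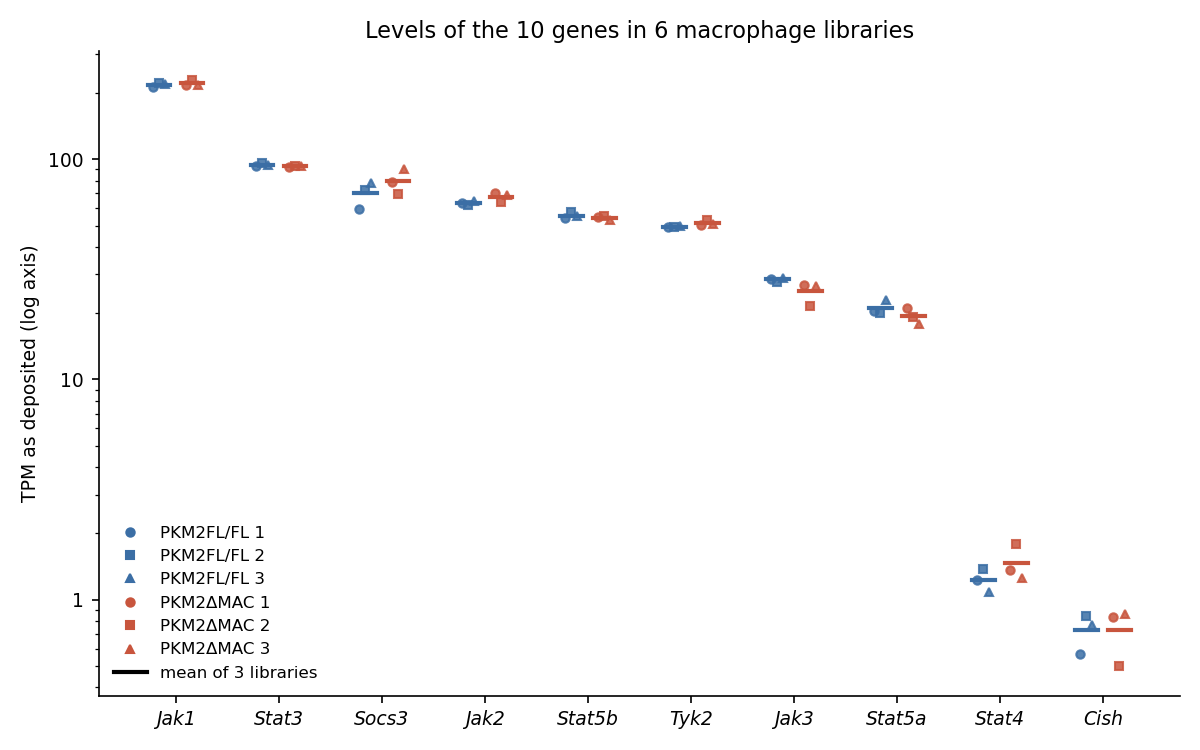
TPM of each of the 10 genes in each library on a log axis, in order of the mean, with PKM2FL/FL libraries in blue, PKM2ΔMAC libraries in red and the mean of 3 libraries as a bar. From Jak1 to Stat5a, 8 genes lie between 17.9 and 229 TPM, and Stat4 and Cish reach at most 1.79 TPM in any library.

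The spread between the 6 mice also differed among the genes. The coefficient of variation of TPM was 1.25% for Stat3 and between 2.57% and 2.71% for Jak1, Stat5b and Tyk2. It was 4.86% for Jak2, 8.62% for Stat5a and 9.92% for Jak3. Socs3 varied by 13.9% although it had between 2635 and 3597 counts in each library. Stat4 varied by 18.0% and Cish by 21.4%, at between 61 and 100 and between 46 and 79 counts, where counting error is a larger part of the spread. These coefficients pool both genotypes and hold for TPM only, and the order can differ in CPM. Stat3 had 256.7 ± 0.703 CPM in the controls and 240.5 ± 7.21 CPM in PKM2ΔMAC BMDMs (SD, n = 3 each). Tyk2 had 96.8 ± 1.47 and 95.6 ± 1.07 CPM.

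Of the summed TPM of the 4 kinases, Jak1 made up between 59.6% and 62.3% in every library, Jak2 between 17.2% and 19.3% and Tyk2 between 13.6% and 14.4%. Jak3 made up between 7.67% and 8.10% in PKM2FL/FL and between 5.90% and 7.40% in PKM2ΔMAC libraries, so that its share did not overlap between the genotypes. Of the summed TPM of 6 STATs (the 4 described here, Stat2 and Stat6), Stat6, the IL-4 factor, made up between 44.7% and 48.0% and Stat3 between 20.8% and 23.0%. Stat5b made up between 12.4% and 13.2%, Stat2 between 11.1% and 16.8%, Stat5a between 4.29% and 5.51% and Stat4 between 0.259% and 0.402%.

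Among the JAK kinases, Jak1 (chr4:101152367-101265282, minus strand of GRCm38 in GENCODE M21, as for all positions below) had 442, 453 and 456 CPM in PKM2FL/FL libraries 1 to 3 and 432, 434 and 439 CPM in PKM2ΔMAC libraries 1 to 3. Every PKM2ΔMAC library lay below every PKM2FL/FL library, by a small margin. The log2 fold change was -0.051 with an SE of 0.037 (adjusted p = 0.717), a change of -3.48% with a 95% interval from -8.99% to 2.37%. On the deposited TPM the groups overlapped and the fitted value had the opposite sign.

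Jak2 (chr19:29251828-29313080, plus strand), which carries signals of GM-CSF, IL-3 and IFN-γ receptors, had 91.5, 88.3 and 93.6 CPM in the PKM2FL/FL libraries against 97.4, 84.6 and 95.9 CPM in PKM2ΔMAC libraries. The groups overlapped, with PKM2ΔMAC library 2 the lowest of the 6 and library 1 the highest. This gave a log2 fold change of 0.023 with an SE of 0.058 (adjusted p = 0.937), and the 95% interval of the change ran from -7.25% to 11.4%.

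Jak3 (chr8:71676296-71690575, plus strand) had the largest fold change among the 10 genes, with 44.1, 41.9 and 44.5 CPM in the PKM2FL/FL libraries against 39.8, 30.4 and 39.7 CPM in PKM2ΔMAC libraries. The groups did not overlap, and PKM2ΔMAC library 2 stood well below the other libraries of its genotype. In the edgeR fit the log2 fold change was -0.25 (SE 0.103, unadjusted p = 0.0449, adjusted p = 0.493), a change of -15.8% with a 95% interval from -28.8% to -0.511%. Without PKM2ΔMAC library 2 the log2 fold change was -0.13. Jak3 shares 404 exon bases with Insl3, which had 0.471 CPM in PKM2FL/FL BMDMs and 0.383 CPM in PKM2ΔMAC BMDMs. Lymphocytes also express Jak3, and the 8 T and NK cell markers summed to between 0.630 and 1.05 CPM in the controls and between 0.584 and 0.866 CPM in PKM2ΔMAC BMDMs. Of these markers 0 had a mean of at least 1 TPM, and 0 were at 0 in every library. The 6 B cell markers summed to between 39.4 and 50.8 CPM in the controls and between 42.4 and 55.2 CPM in PKM2ΔMAC BMDMs. Nearly all of each sum was Ebf1 (13.5 to 20.8 TPM), with 37.9 to 48.5 CPM in the controls and 40.5 to 53.1 CPM in PKM2ΔMAC BMDMs. Of the 6, 2 had a mean of at least 1 TPM, 0 were at 0 in every library, and 1 (Cd79b, a B cell receptor chain) was higher in PKM2ΔMAC without overlap, where 8.92% of all genes tested were. The part of lymphocytes in the Jak3 values was not tested.

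Tyk2 (chr9:21104068-21131243, minus strand) had 97.3, 95.2 and 98.0 CPM in the PKM2FL/FL libraries against 94.92, 94.97 and 96.8 CPM in PKM2ΔMAC libraries. The groups overlapped and lay within a few CPM of each other. Its fitted log2 fold change was -0.019 with an SE of 0.035 (adjusted p = 0.912), and the 95% interval of the change, from -6.66% to 4.38%, was the narrowest among the kinases. On the deposited TPM the direction was the opposite, with 49.16, 49.18 and 49.7 TPM in the controls and 50.2, 52.8 and 50.8 TPM in PKM2ΔMAC BMDMs, without overlap (fitted value 0.053 by limma-trend on log2(TPM + 1)). Tyk2 lies on the chromosome of Pkm at a distance of 38.6 Mb, and 554 of its exon bases overlap the antisense gene 1700084C06Rik.

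Among the STATs, Stat3 (chr11:100885098-100939540, minus strand) had 256, 257 and 256 CPM in the PKM2FL/FL libraries against 243, 232 and 246 CPM in PKM2ΔMAC libraries. The 3 control libraries were nearly equal, and every PKM2ΔMAC library lay below them. The log2 fold change was -0.094 (SE 0.038, unadjusted p = 0.0383, adjusted p = 0.472), a change of -6.30% with a 95% interval from -11.8% to -0.443%. On the deposited TPM, Stat3 also did not overlap between the genotypes, with 93.3, 95.9 and 93.7 TPM against 92.7, 93.1 and 92.9 TPM, a far smaller gap.

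STAT5 is encoded by a pair of neighbouring genes with closely related sequences, which act downstream of GM-CSF, IL-3, gamma chain cytokines and growth hormone. Stat5b (chr11:100780731-100850724, minus strand) had 86.2, 89.6 and 87.5 CPM in the PKM2FL/FL libraries against 83.4, 80.4 and 81.8 CPM in PKM2ΔMAC libraries, with no overlap. Its log2 fold change was -0.10 (SE 0.037, unadjusted p = 0.0258, adjusted p = 0.425, the smallest of the 10), a change of -6.72% with a 95% interval from -12.1% to -1.06%. On the deposited TPM the values of Stat5b overlapped, from 54.0 to 57.4 TPM in the controls and from 53.2 to 55.4 TPM in PKM2ΔMAC BMDMs. Stat5a (chr11:100859351-100885169, plus strand) had 42.0, 40.4 and 47.0 CPM in the PKM2FL/FL libraries against 41.7, 35.8 and 35.4 CPM in PKM2ΔMAC libraries. PKM2ΔMAC library 1 lay within the range of the controls, and the other two lay below it. The log2 fold change of Stat5a was -0.20 (SE 0.081, unadjusted p = 0.0410, adjusted p = 0.481), a change of -12.7% with a 95% interval from -23.3% to -0.703%. Without PKM2FL/FL library 3, its highest, the log2 fold change was -0.13.

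The ratio of Stat5b to Stat5a in TPM was 2.65, 2.85 and 2.39 in PKM2FL/FL and 2.57, 2.89 and 2.98 in PKM2ΔMAC libraries, which overlapped. Of the distinct stretches of 50 bases in the annotated transcripts of Stat5a, 8.21% were also found in transcripts of Stat5b, and no such stretch was shared between any other pair of the 10 genes. Reads from those stretches could have been counted on either gene or left out. Stat5a and Stat3 meet end to end and share 72 exon bases on opposite strands. Whether the counting used strand is not given in the sources used here, so reads in that overlap cannot be assigned.

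Stat4 (chr1:51987148-52107189, plus strand) was low, with 1.37, 1.501 and 1.20 CPM in the PKM2FL/FL libraries against 1.45, 1.82 and 1.35 CPM in PKM2ΔMAC libraries. The groups overlapped, and PKM2ΔMAC library 2 was the highest of the 6. This gave a log2 fold change of 0.18 with an SE of 0.214 (adjusted p = 0.837), with a 95% interval of the change from -19.0% to 59.4%. Without PKM2ΔMAC library 2 the log2 fold change was 0.048. Stat4 shares 1033 exon bases with Gm28177 on the same strand.

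Of the feedback inhibitors, Socs3 (chr11:117966079-117970047, minus strand) had 49.4, 59.2 and 64.8 CPM in the PKM2FL/FL libraries against 62.7, 52.8 and 72.5 CPM in PKM2ΔMAC libraries. The groups overlapped, and the spread within each genotype exceeded the difference of their means. In the edgeR fit the log2 fold change was 0.12 with an SE of 0.147 (adjusted p = 0.850), with a 95% interval of the change from -15.5% to 39.3%. Without PKM2ΔMAC library 3 the fitted value was -0.00079. Cish (chr9:107296026-107302784, plus strand) had 1.05, 1.52 and 1.42 CPM in the PKM2FL/FL libraries against 1.47, 0.838 and 1.53 CPM in PKM2ΔMAC libraries. The lowest value was that of PKM2ΔMAC library 2, and the other two PKM2ΔMAC libraries lay within or just above the control range. Its fitted log2 fold change was -0.056 with an SE of 0.287 (adjusted p = 0.971), with a 95% interval of the change from -38.9% to 51.5%. Cish shares 740 exon bases with Gm17040 and Gm17041 on the opposite strand and lies 47.6 Mb from Pkm.

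**Figure D2:**
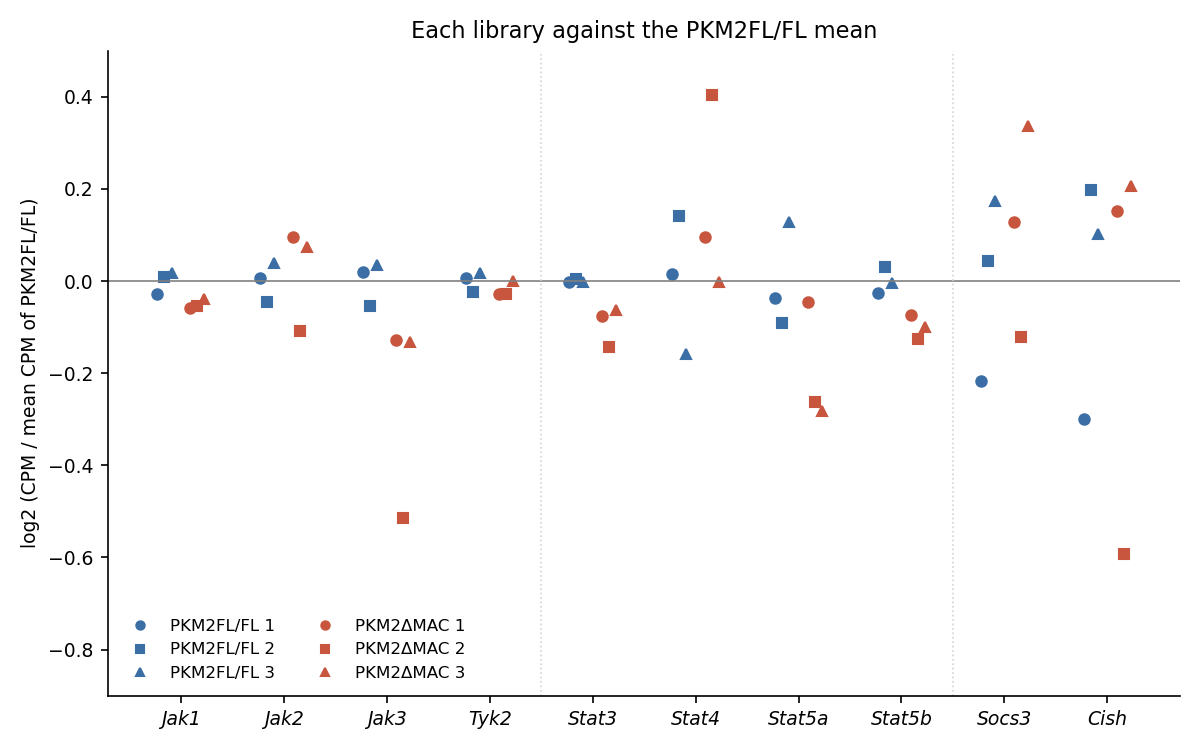
The log2 ratio of each library's CPM to the PKM2FL/FL mean for each of the 10 genes, with PKM2FL/FL libraries in blue and PKM2ΔMAC libraries in red, and dotted lines between kinases, STATs and feedback genes. The groups lie apart for Jak1, Jak3, Stat3 and Stat5b, and PKM2ΔMAC library 2 (red square) is the lowest of the 6 libraries for 5 genes.

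Over the 10 genes, 0 were called by edgeR's quasi-likelihood test, by DESeq2 or by limma-trend on the TPM, where Cish entered the unfiltered fit only. Over all genes, edgeR called 0.412% and DESeq2 called 1.83%. Limma-trend called 0.281% on log2(TPM + 1), 0.233% on log2(TPM + 0.1) and 0.150% on log2(TPM + 1) without a filter. At an unadjusted p under 0.05, edgeR gave 4 genes (Jak3, Stat3, Stat5a and Stat5b), all with lower fitted values in PKM2ΔMAC, where 9.83% of all genes tested met that threshold in either direction and 4.60% with lower values. DESeq2 gave 2 such genes (Jak3 and Stat5a), where 9.07% of all genes met that threshold in its fit. Limma-trend on log2(TPM + 1) gave 0 such genes, where 13.4% of the 14582 genes with a mean of at least 1 TPM did so. The groups did not overlap in CPM for 4 genes (Jak1, Jak3, Stat3 and Stat5b), all lower in PKM2ΔMAC, where 17.2% of all genes tested did not overlap, 8.32% lower and 8.92% higher. For these 4 the two-sided exact permutation test gave p = 0.1, the smallest it can give. On the deposited TPM, 2 genes were lower without overlap (Jak3 and Stat3) and 1 was higher (Tyk2), where 3.15% of all genes tested were lower and 19.0% higher. The median log2 fold change was -0.054 over the 10 genes and -0.00021 over all genes tested, and the median absolute log2 fold change over all genes tested was 0.093. With a library left out, the median over the 10 genes lay between -0.0799 (without PKM2FL/FL library 1) and -0.0268 (without PKM2FL/FL library 3). With limma-trend on log2(TPM + 1) without a filter, the median was 0.0105 over the 10 genes and 0.046 over all 23935 genes. Among genes with a mean of at least 1 TPM it was 0.021 over the 9 genes other than Cish and 0.063 over 14582 genes.

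**Figure D3:**
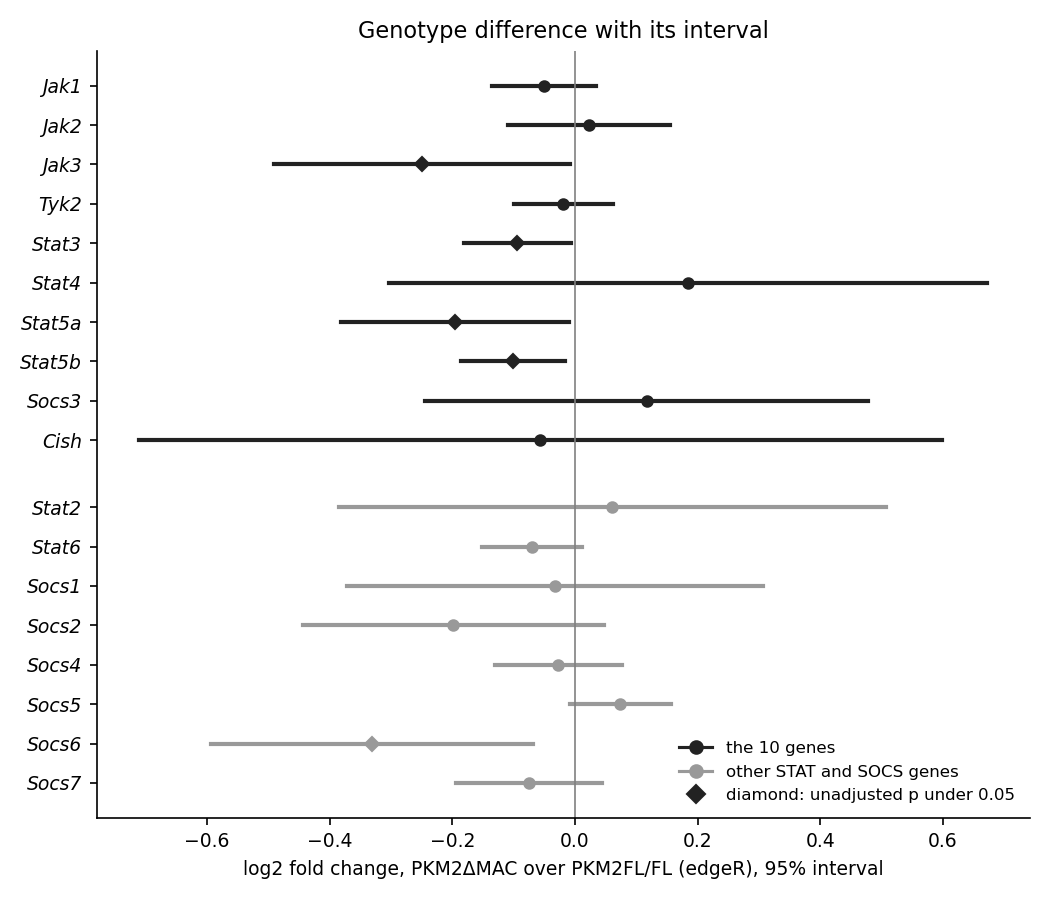
The log2 fold change of each of the 10 genes (black) and of the other STAT and SOCS genes in the lists (grey) with its 95% interval from edgeR, on a linear axis with diamonds for an unadjusted p under 0.05. The intervals are narrow for Jak1, Tyk2, Stat3 and Stat5b and wide for the 2 genes with few counts, Stat4 and Cish.

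Library 2 of PKM2ΔMAC had values below the PKM2FL/FL mean for 9 of the 10 genes, with a median log2 ratio of -0.12, against 6 and 7 genes and medians of -0.037 and -0.020 in PKM2ΔMAC libraries 1 and 3. The same library had the highest sum of the 8 proliferation markers, 575 CPM, against 376 and 344 CPM in PKM2ΔMAC libraries 1 and 3 and between 285 and 307 CPM in PKM2FL/FL. Of these markers 7 were higher in PKM2ΔMAC without overlap (8.92% of all genes tested were), and 0 were at 0 in every library. The 8 neutrophil markers summed to between 90.1 and 170 CPM in PKM2ΔMAC and between 20.3 and 48.8 CPM in PKM2FL/FL libraries, and 5 of them were higher without overlap. All 8 had a mean of at least 1 TPM. The part of these shifts in the values of the 10 genes was not tested.

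Around the 10 genes, the pathway was described with lists of 91 genes, of which 86 were in the tables and 76 were tested. By edgeR, 0 of the 76 were called, where 0.412% of all genes tested were. Of the 76, 3 had an unadjusted p under 0.05 with higher values and 8 with lower values, where 5.24% and 4.60% of all genes tested did so. The groups did not overlap for 6 higher and 10 lower genes of the 76, where 8.92% and 8.32% of all genes tested did so. Their median log2 fold change was -0.035. With DESeq2, which called 1.83% of all genes tested, 3 of them were called (Cbl, Ifngr1 and Osm). These lists were written from general knowledge, and no direction of a list as a whole was tested.

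Stat2, Stat6 and Irf9, the interferon and IL-4 branch genes listed, gave 0 calls among 3 genes and a median of -0.070. Stat6, the most abundant of the 6 STATs with between 191 and 202 TPM, had 246 ± 3.48 CPM in PKM2FL/FL BMDMs and 234 ± 2.67 CPM in PKM2ΔMAC BMDMs (SD, n = 3 each). Its groups did not overlap in CPM, and its log2 fold change was -0.070 (adjusted p = 0.572). On the deposited TPM the groups of Stat6 overlapped (192 to 201 against 191 to 202 TPM), and the fitted value had the opposite sign. Stat2 had 95.2 ± 5.06 and 99.3 ± 22.5 CPM, with a log2 fold change of 0.061 (adjusted p = 0.947).

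The 6 other SOCS genes gave 0 calls and a median of -0.054. Fitted values were below 0 for 5 of the 6 and for 8271 of all 16516 genes tested. Socs6, a family member linked to turnover of receptor tyrosine kinases, had 83.2 ± 1.5 CPM in PKM2FL/FL BMDMs and 66.2 ± 10.6 CPM in PKM2ΔMAC BMDMs (log2 fold change -0.33, unadjusted p = 0.0209, adjusted p = 0.408). Without PKM2ΔMAC library 2 the log2 fold change was -0.22. Socs5 and Socs4 had the highest levels by TPM, with log2 fold changes of 0.074 and -0.027. Socs1, the inhibitor of interferon receptors, was low at 3.14 ± 0.215 and 3.07 ± 0.296 CPM. Socs2, a STAT5 target, had 10.2 ± 0.613 and 8.86 ± 1.02 CPM (log2 fold change -0.20, adjusted p = 0.601).

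Of the 12 PIAS, phosphatase, adaptor and ligase genes, most of which restrain the pathway, 0 were called by edgeR and the median was -0.033. Cbl, a ubiquitin ligase that acts on activated receptors and kinases, had 347, 345 and 352 CPM in the PKM2FL/FL libraries against 297, 283 and 239 CPM in PKM2ΔMAC libraries. All 3 PKM2ΔMAC values lay below the controls (log2 fold change -0.35, SE 0.075, adjusted p = 0.167). DESeq2 gave an adjusted p of 0.00445 for Cbl, within a range over all alternatives from 0.00445 to 0.575. Ptpn6, the phosphatase SHP-1, and Ptpn1 were the most abundant by TPM, with log2 fold changes of 0.11 and -0.13 (adjusted p = 0.575 and 0.664). Without PKM2ΔMAC library 2 these were 0.050 and -0.035.

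Among receptors, the smallest p was that of Ifngr1, the ligand-binding chain of the IFN-γ receptor, which pairs with JAK1. It had 227, 239 and 244 CPM in the PKM2FL/FL libraries against 199.7, 169.9 and 168 CPM in PKM2ΔMAC libraries, with no overlap. Its log2 fold change was -0.40 (SE 0.070, unadjusted p = 0.000385), and its adjusted p of 0.0715 missed the threshold. The adjusted p was 0.000238 with DESeq2, 0.0269 with no filter on low counts and 0.00986 without PKM2ΔMAC library 1, and reached 0.397 without PKM2FL/FL library 2. Ifngr2, the second chain, had a log2 fold change of -0.018 (adjusted p = 0.925). Il10ra and Il10rb, the chains of the IL-10 receptor upstream of STAT3, had log2 fold changes of -0.13 and -0.12 (adjusted p = 0.427 for each), and only Il10rb did not overlap between the groups. The 6 IL-10 and interferon receptor genes tested had a median of -0.10.

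The gp130 and IL-12 family receptors had a median of -0.044 over 8 genes. Il6st, which encodes gp130, had a log2 fold change of 0.035 and Il6ra, its IL-6 binding partner, of -0.098 (adjusted p = 0.935 and 0.745). Il12rb1, a TYK2-binding chain of the IL-12 and IL-23 receptors, had 1.37 ± 0.151 CPM in PKM2FL/FL BMDMs and 2.15 ± 0.320 CPM in PKM2ΔMAC BMDMs, without overlap (log2 fold change 0.65, SE 0.200, adjusted p = 0.340). The gamma chain and IL-4 receptor genes had a median of -0.054 over 8 genes. Il4ra had a log2 fold change of -0.035 (adjusted p = 0.847). That of Il7r was -0.054 with an SE of 0.365, and its range was 93.2 to 199 TPM over the libraries. The beta chain and homodimeric receptor genes had a median of -0.051 over 8 genes. Csf2ra and Csf2rb2, of the GM-CSF and IL-3 receptors, had log2 fold changes of 0.022 and -0.067 (adjusted p = 0.941 and 0.956).

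Among 19 ligand genes, 15 were in the tables and 9 were tested, with a median of -0.018. Osm, the gp130 family cytokine oncostatin M and itself a STAT5 target, had 5.62, 6.50 and 6.46 CPM in the PKM2FL/FL libraries against 3.49, 3.86 and 4.86 CPM in PKM2ΔMAC libraries. The groups did not overlap (log2 fold change -0.61, SE 0.151, adjusted p = 0.223), and DESeq2 gave an adjusted p of 0.0260 in a range over all alternatives up to 0.649. Il4 had 3.04 ± 0.121 and 2.02 ± 0.0766 CPM (log2 fold change -0.59, adjusted p = 0.225). Mast cells and basophils also make Il4, and their 6 markers summed to between 4.68 and 6.08 CPM in PKM2FL/FL and between 3.16 and 8.05 CPM in PKM2ΔMAC libraries. Of these markers 4 had a mean of at least 1 TPM, 0 were at 0 in every library and 2 were lower in PKM2ΔMAC without overlap (8.32% of all genes tested were). These were Cpa3 (log2 fold change -1.45, adjusted p = 0.233) and Fcer1a, which had 2 counts in each PKM2FL/FL library and 0 in each PKM2ΔMAC library. Their part in the Il4 values was not tested. Ebi3, a chain of IL-27, and Il15 had the highest levels by TPM, with log2 fold changes of 0.030 and -0.095. Il6, the best known STAT3-activating cytokine, had between 0.197 and 0.515 TPM in all 6 libraries.

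The 14 STAT3 target genes gave 0 calls and a median of -0.019. Mcl1, a survival gene, had 766 ± 18.0 CPM in PKM2FL/FL BMDMs and 707 ± 26.2 CPM in PKM2ΔMAC BMDMs (log2 fold change -0.11, adjusted p = 0.451), and Timp1, a metalloproteinase inhibitor, had 77.3 ± 1.02 and 83.1 ± 1.29 CPM (log2 fold change 0.11, adjusted p = 0.393). Neither overlapped between the genotypes, and they lay on opposite sides. The 8 STAT5 target genes gave 0 calls by edgeR and a median of 0.057. Pim2, a serine/threonine kinase, had 3.86, 4.14 and 4.47 CPM in the PKM2FL/FL libraries against 6.07, 8.18 and 5.14 CPM in PKM2ΔMAC libraries, without overlap (log2 fold change 0.64, SE 0.178, adjusted p = 0.270). Bcl2l1, which encodes BCL-XL, and Bcl6 had log2 fold changes of 0.11 and 0.0023 (adjusted p = 0.644 and 0.991).

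**Figure D4:**
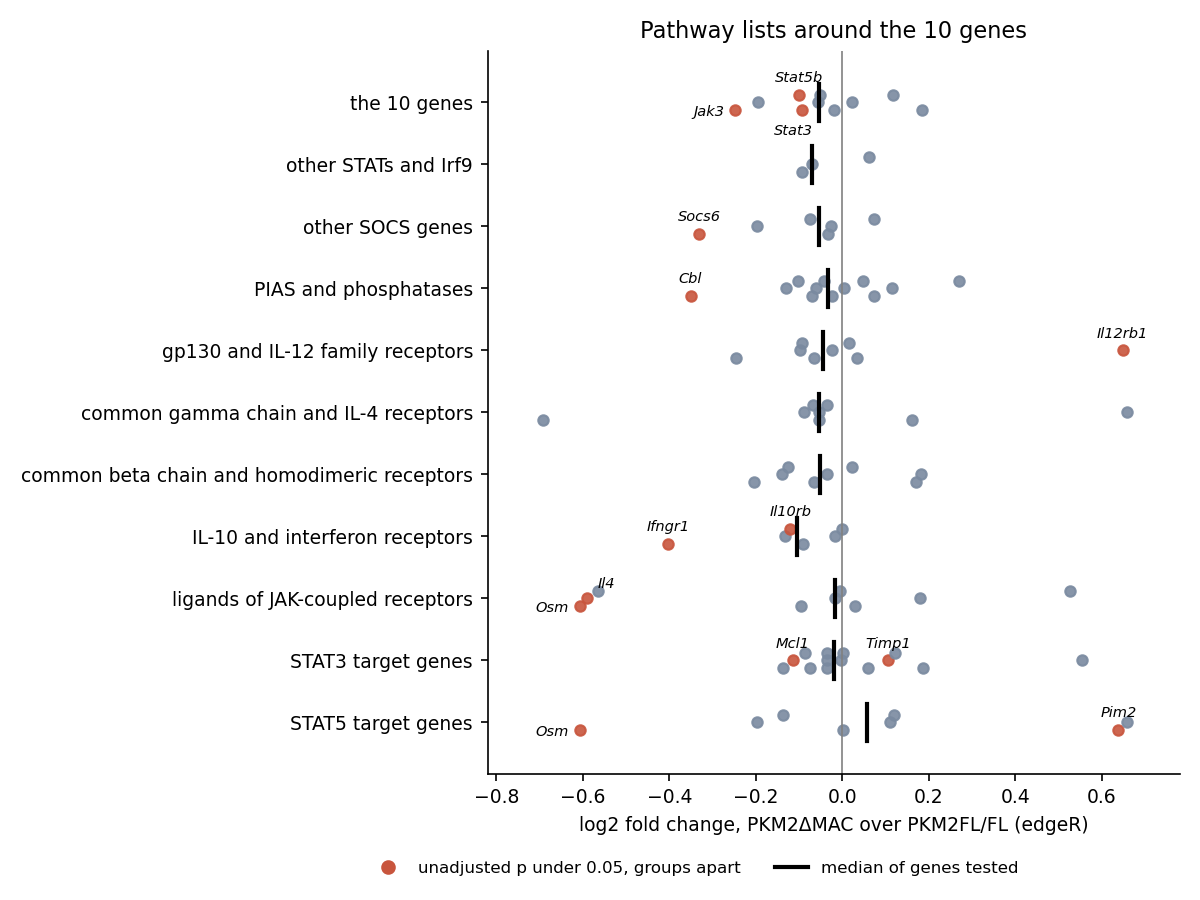
The log2 fold change of each tested gene, by list, with the median of each list as a black bar and genes with an unadjusted p under 0.05 and no overlap between the genotypes in red. List medians lie between -0.10 (IL-10 and interferon receptors) and 0.057 (STAT5 targets), and Ifngr1, Osm and Il4 lie farthest to the left among the red points.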

How the data were processed

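RNA-seq of 6 BMDM libraries, 3 per genotype, was used. The authors deposited a table of raw counts by gene symbol, not normalized, and a table of TPM for the same symbols and libraries. Columns were matched to samples by genotype and mouse number, and 0 columns were left unmatched. The submitters' processing notes list FastQC 0.12.1, Trim Galore 0.6.10, HISAT2 2.2.1, SAMtools 1.19.2, Subread 2.0.6 and the build mm10. Annotation and strand setting are not given in the sources used here. Lengths implied by counts and TPM were within 10% of GENCODE M21 exon unions for 99.5% of 12369 genes, so positions were taken from that annotation.

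Counts were tested with edgeR 4.0.16 (R 4.3.3, filterByExpr on genotype, TMM, robust quasi-likelihood fit with genotype as the only term), with Benjamini-Hochberg adjustment over the 16516 genes kept. The SE is the absolute log2 fold change over the square root of F. Exact permutation tests compared log2(CPM + 0.1) and cannot go below p = 0.1 for 3 against 3. The fit was repeated with DESeq2 1.42.0, with RLE or upper-quartile scaling, no filter, at least 10 counts in every library, non-robust fitting, a replicate block, each library left out, and limma-trend (limma 3.58.1) on log2 of the TPM with a pseudocount of 1 or 0.1, for genes with a mean of at least 1 TPM or unfiltered. The functions were tested on simulated data. Pairs of libraries of a genotype differed more than counting noise (chi-square over its degrees of freedom, 8.19 to 62.2), so no pair looked like repeat reads of 1 library.

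The members and lists were chosen with earlier results of these data known. From the lists, genes were named if they had an adjusted p under 0.05, if they had an unadjusted p under 0.05 without overlap of the genotypes, or if they were among the 2 most abundant of their list by TPM. Socs1, Socs2, Ifngr2, Il6, Il12b and Il1rn were named outside this rule, after their values were seen. A gene of the lists is not reported here.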

Additional observations from a re-analysis of the deposited data

How the results depend on the processing

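None of the 10 genes was called in any of the 16 alternatives. For Jak3, Stat3, Stat5a and Stat5b the fitted value stayed below 0 in all 16, and for Stat4 above 0. On log2(TPM + 1) it was -0.18 for Jak3, -0.022 for Stat3, -0.12 for Stat5a and -0.027 for Stat5b. The number with an unadjusted p under 0.05 was 2 with DESeq2, 1 with upper-quartile scaling and 0 on the TPM. With a library left out it was between 0 and 3. Over all genes, 1498 of 16516 met that threshold with DESeq2 and 1610 of 16516 with upper-quartile scaling. On the TPM 1954 and 1937 of 14582 did so, and 2525 of 23935 without a filter. With a library left out, the number ran from 1099 of 17049 (without PKM2FL/FL library 3) to 2242 of 16913 (without PKM2ΔMAC library 2). With limma-trend on log2(TPM + 1), log2(TPM + 0.1) and unfiltered log2(TPM + 1), values reversed for Jak1 (0.0213, 0.0214, 0.0213), Tyk2 (0.0527, 0.0536, 0.0527), Stat6 (0.0024, 0.0024, 0.0024), Socs4 (0.0440, 0.0453, 0.0440) and Il4ra (0.0368, 0.0371, 0.0368), where the median of all genes was 0.063, 0.067 and 0.046. Mean TPM was also higher in PKM2ΔMAC than in PKM2FL/FL for Ifngr2 (183.35 against 176.5) and Socs1 (3.88 against 3.78), whose edgeR values were below 0. Cish was below 1 TPM and was not in the filtered TPM fits. With each library left out in turn, values crossed 0 for Jak2 (-0.014 to 0.086), Socs3 (-0.00079 to 0.23), Cish (-0.20 to 0.18), Stat2 (-0.065 to 0.23), Il6st (-0.029 to 0.13), Il7r (-0.24 to 0.24), Csf2ra (-0.023 to 0.077), Csf2rb2 (-0.23 to 0.13), Ebi3 (-0.16 to 0.13), Il15 (-0.23 to 0.023), Bcl6 (-0.013 to 0.014) and Ifngr2 (-0.030 to 0.0017). They moved over 1.5 times on one side of 0 for Il6ra (-0.17 to -0.042), Bcl2l1 (0.061 to 0.18), Socs2 (-0.30 to -0.15), Socs4 (-0.053 to -0.0012), Il4ra (-0.064 to -0.0019), Tyk2 (-0.031 to -0.011) and Stat5a (-0.28 to -0.13, the last without PKM2FL/FL library 3). The cause was not tested. Over the whole table, 302 genes were called with DESeq2, 120 with no filter on low counts, 41, 34 and 36 on the TPM, and 22 to 299 with a library left out, the highest without PKM2ΔMAC library 2. In the lists, DESeq2 called 1 gene each among PIAS and phosphatases, IL-10 and interferon receptors, ligands and STAT5 targets, no filter called 1 IL-10 or interferon receptor, and leaving out a library called 0 to 1 there. Pkm had an adjusted p between 0.0754 and 0.0993 without any one PKM2FL/FL library and between 0.112 and 0.183 on the TPM. Same-numbered libraries of the genotypes deviated together with r between 0.0188 and 0.141. The highest r was that with the same number for 3 PKM2FL/FL and 2 PKM2ΔMAC libraries. As these r were low, the numbers were not taken as pairs in the main fit. With the replicate block 82 genes were called in place of 68, and 0 of the 10. Among the 10 genes, Stat4 and Cish had the fewest counts.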
